A study of Rattus norvegicus with 15 samples.

Results

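Retinas of rats that had been given DPSC cells were compared with retinas of rats that had been given MSC cells, both in the sodium iodate (NaIO3) model of retinal degeneration. The comparison held 6 of the 15 libraries of the series, 3 labelled DPSC and 3 labelled MSC, chosen by their titles. It covered the 15457 of 20375 listed genes whose mean over these 6 libraries reached 3.32 on the authors' regularized log2 scale (rlog), which is the log2 of 10. All animals were wild-type Sprague-Dawley rats, labelled as 12 postnatal weeks of age and as day 31 after transplantation, although the design text of the series gives 31 days as the age. The DPSC and MSC groups received cells into the vitreous at a labelled density of 100000 cells per μl in Hank's saline, and NaIO3 at 40 mg/kg systemically. Rats with xenografts also received dexamethasone at 2 mg/kg before surgery and oral cyclosporin at 10 mg/kg per day afterwards. The sham group received NaIO3 with vehicle, and the NT group was healthy and untreated. The MSC cells were human Wharton's jelly mesenchymal stem cells, while the labels do not spell out what DPSC stands for and the study's methods describe neither the source nor the dose of these cells. The density in the study's methods differs from the labelled one. Those methods also place the injection of MSC cells a few days before NaIO3, and count the days of the study from NaIO3.

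NaIO3 is an oxidant that damages the retinal pigment epithelium first, the layer that feeds photoreceptors and recycles their visual pigment, and photoreceptors are lost after it. Müller glia, the radial support cells of the retina, answer such injury with reactive gliosis, in which Gfap and related genes are switched on. The healthy retina holds resident microglia and few lymphocytes, and MHC class II molecules, which present peptides to helper T cells, are normally scarce in it. A xenograft in an eye is exposed to the host's T cells, B cells and macrophages even under immunosuppression.

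No gene passed the test between the DPSC and MSC groups. With an adjusted p under 0.05 and a difference over 1 on the log2 scale as the call, 0 of 15457 genes were higher and 0 were lower in DPSC (0% of the genes in each direction), and the smallest adjusted p in limma's moderated test was 0.5801. At an unadjusted p under 0.05 the groups differed in 909 genes that were lower in DPSC (5.88%) and 192 that were higher (1.24%). Quantile normalization of the libraries moved this split to 743 lower and 489 higher. With the 6 DPSC and MSC libraries fitted alone it was 402 lower and 97 higher. By size alone, 405 genes (2.62%) were lower in DPSC by over 1 on the log2 scale and 52 genes (0.336%) were higher. The 3 DPSC values lay wholly below the 3 MSC values in 569 genes (3.68%) and wholly above them in 467 genes (3.02%). Whatever the size, 7644 genes (49.5%) were higher and 7813 (50.5%) lower, and the median difference was -0.0026. What follows is therefore a description of levels and differences, and p-values named as unadjusted did not survive the correction.

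The libraries within each group were as far apart as the groups were from each other. Distances were taken over the tested genes, which were chosen by their level in the DPSC and MSC libraries. The mean Euclidean distance was 60.7 ± 14.3 between DPSC libraries (SD, 3 pairs) and 61.6 ± 21.4 between MSC libraries (SD, 3 pairs). It was 67.7 ± 24.8 across the groups (SD, 9 pairs), against 33.8 ± 2.3 between sham libraries (SD, 3 pairs). DPSC 2 stood apart from its group, with a mean distance of 46.8 to the MSC libraries and 68.7 to the other DPSC libraries, and its nearest library was MSCEPO 1 at 27.1, the closest pair in the series. DPSC 1 and DPSC 3 lay nearest to sham libraries, at 41.4 and 36.1. MSC 1 lay far from every other group, at a mean distance of 101.9 to sham. MSCEPO 3, too, lay apart from its group, with DPSC 3 as its nearest library at 58.1. The libraries were used under their deposited labels, and whether any label was exchanged, which would change each DPSC value given here, was not tested. The results below are therefore given per library and, where it matters, without DPSC 2 and MSC 1. Retinal identity was clear in all 6 libraries: the rod transducin subunit Gnat1, at 15.2 to 16.8, and the photoreceptor factor Crx, the ON bipolar receptor Grm6, the GABA-synthesizing enzyme Gad1, the neurofilament Nefl and the Müller gene Rlbp1, each above 10, were detected in every one.

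**Figure D1:**
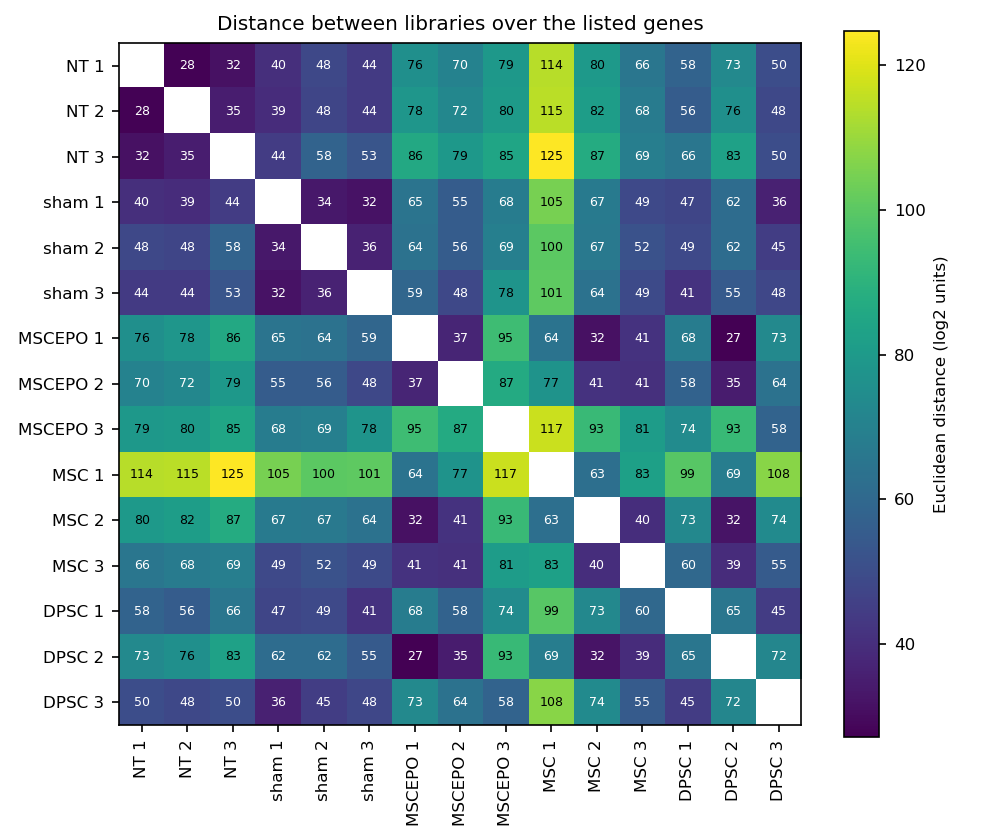
Euclidean distance in log2 units between the 15 libraries over the 15457 tested genes, with the rounded distance printed in each cell (rows and columns are libraries, darker is closer). MSC 1 is pale against nearly all libraries, and DPSC 2 is closer to MSC 2 and MSCEPO 1 than to DPSC 1 or DPSC 3.

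Nearly all lymphocyte genes were lower in DPSC than in MSC. Of 32 tested genes of T and NK cells, 31 were lower in DPSC, 27 of them at an unadjusted p under 0.05, and the median difference was -0.95. Over all tested genes, 5.88% were lower at that unadjusted p, 2.62% were lower by over 1 and 3.68% were lower without overlap. For higher genes these shares were 1.24%, 0.336% and 3.02%. The list counts below are to be read beside these shares. Each SE and unadjusted p rests on a spread pooled over all 15 libraries, NT and sham included. The mean rlog of the T and NK list had an SD of 0.99 in MSC and 0.32 in DPSC, against 0.06 in NT and 0.004 in sham. Cd3e, a chain of the T cell receptor complex, had rlog values of 9.67, 6.48 and 5.65 in MSC 1, 2 and 3 and of 4.41, 5.53 and 4.44 in DPSC 1, 2 and 3, with a sham mean of 4.28. The groups did not overlap, but DPSC 2 came close to MSC 3. The difference for Cd3e was -2.48 ± 0.75 (SE, n = 3 per group, unadjusted p = 0.0059, adjusted p = 0.58). Lck, the kinase that starts T cell receptor signaling, differed by -1.86 ± 0.49, and Zap70, which acts just after it, by -1.04 ± 0.27 (SE, n = 3 per group), again without overlap. The cytotoxic coreceptor Cd8a (difference -1.08 ± 0.32) did overlap, since DPSC 2 at 4.54 exceeded MSC 3 at 4.41.

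B cell and plasma cell genes followed the same order of libraries. All 17 tested members were lower in DPSC, 13 at an unadjusted p under 0.05, 10 by over 1 and 2 without overlap, with a median of -1.15. Cd79a, a signaling chain of the B cell receptor, stood at 9.90, 7.87 and 6.65 in MSC 1, 2 and 3. In DPSC 1, 2 and 3 it stood at 4.14, 7.07 and 4.17, beside 4.15 in the sham mean and 4.17 in the NT mean. DPSC 1 and DPSC 3 were thus at the level of retinas that had received no cells, whereas DPSC 2 was within the MSC range. Cd79a differed by -3.02 ± 0.94, the B cell surface protein Ms4a1 by -2.79 ± 0.82 and Mzb1, a chaperone of antibody-secreting cells, by -2.98 ± 0.92 (SE, n = 3 per group). The plasma cell gene Jchain is not among the listed genes. Without DPSC 2 and MSC 1 the list median was -0.96 for B and plasma cells and -0.68 for T and NK cells, and without MSC 1 alone it was -0.72 and -0.55.

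The largest differences of all belonged to genes that the files pair with no symbol. The 25 lowest differences were all of this kind, and such genes made up 116 of the 405 genes lower by over 1 (28.6%), against 6.09% of the genes tested. ENSRNOG00000057376 is one of them, with rlog values of 9.70, 9.72 and 7.90 in MSC 1, 2 and 3 and of 4.13, 7.20 and 4.15 in DPSC 1, 2 and 3. Its sham values ran from 4.05 to 4.45, so that DPSC 1 and DPSC 3 again matched retinas without cells. The difference was -3.95 ± 0.83 (SE, n = 3 per group, unadjusted p = 0.00041). Over the 116 genes, chosen for their difference, the mean level above NT was 4.94, 3.72 and 2.26 in MSC 1, 2 and 3, 0.09, 3.04 and 0.11 in DPSC 1, 2 and 3, and 0.02 to 0.20 in sham.

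Microglia and macrophage genes were lower in DPSC in 28 of 29 tested cases, with a median of -0.96 (-0.53 without MSC 1) and 14 members past a difference of 1. In 0 of the 29 were the groups without overlap. Ptprc, the phosphatase carried by all leukocytes, was measured at 12.2, 10.5 and 9.59 in MSC 1, 2 and 3 and at 7.97, 9.80 and 7.42 in DPSC 1, 2 and 3. The lysosomal protein Cd68 differed by -1.52 ± 0.48 and the oxidase subunit Ncf1 by -1.50 ± 0.46 (SE, n = 3 per group). The microglial receptors Cx3cr1 (-0.96 ± 0.44) and P2ry12 (-0.63 ± 0.34) differed less than Ptprc (-2.35 ± 0.71), though the difference between these genes was not tested. Aif1, the calcium-binding protein used to stain microglia, stood at 11.2, 9.76 and 9.13 in MSC and 8.63, 9.72 and 8.65 in DPSC, beside a sham mean of 8.75. Few neutrophil genes could be tested. Of 5 such genes, all lower in DPSC, the receptor Csf3r differed by -0.57 ± 0.18 without overlap, and the granule genes S100a8, S100a9 and Mpo were under the level required.

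**Figure D2:**
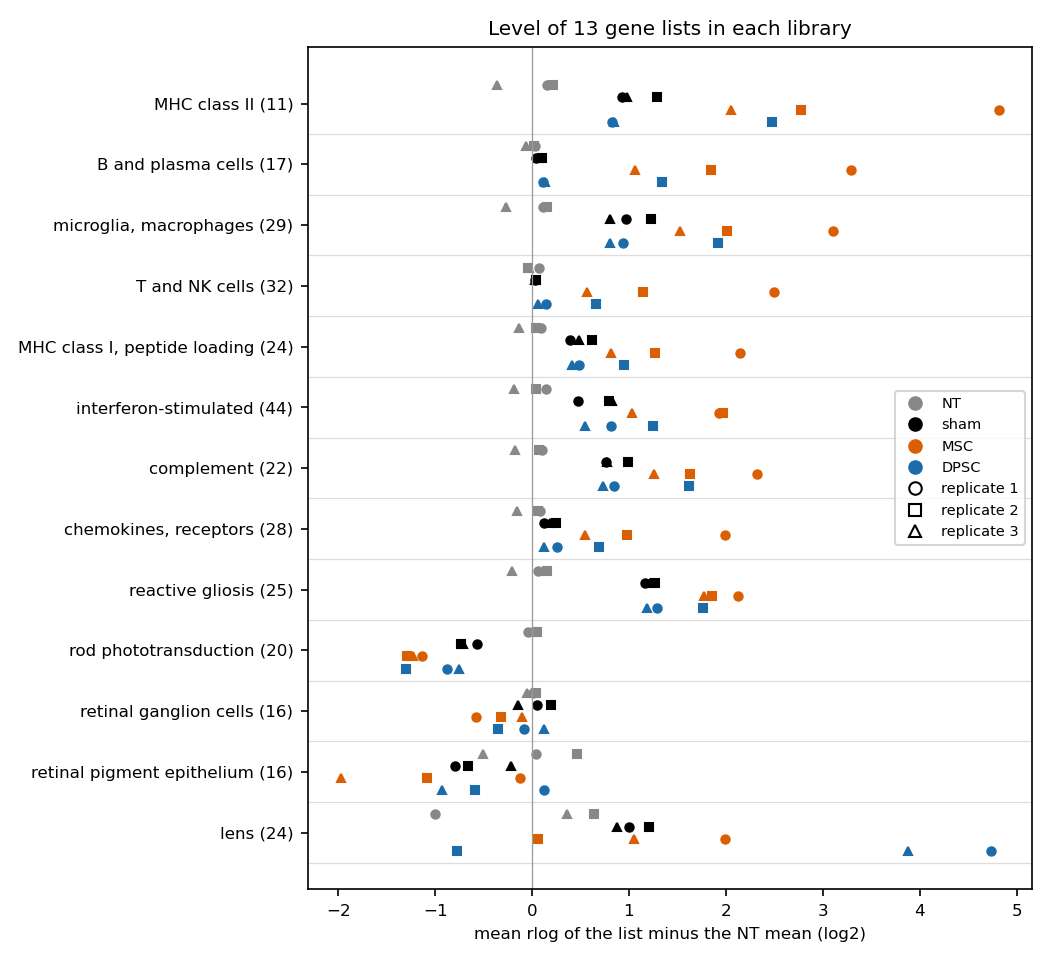
Mean rlog of the tested members of 13 gene lists in each NT, sham, MSC and DPSC library, minus the NT mean (x axis, log2), with the number of members in brackets; colours are groups and symbols are replicate numbers. In the immune lists MSC 1 is the highest or close to the highest library, DPSC 1 and DPSC 3 sit near sham, and DPSC 2 lies among the MSC libraries; in the lens list DPSC 1 and DPSC 3 are the highest and DPSC 2 is among the lowest.

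The 11 tested MHC class II genes had the most negative list median, -2.08 (-1.21 without MSC 1). All 11 were lower in DPSC, 10 at an unadjusted p under 0.05, 9 by over 1 and 1 without overlap. Their mean level above NT was 4.82, 2.77 and 2.05 in MSC 1, 2 and 3. It was 0.83, 2.47 and 0.85 in DPSC 1, 2 and 3, and 0.93 to 1.29 in sham. The invariant chain Cd74, which guides class II molecules to the endosome, reached 15.88, 13.88 and 12.97 in MSC and 11.4, 13.5 and 11.6 in DPSC, so that only DPSC 2 overlapped MSC. RT1-Da, the alpha chain of a rat class II molecule, followed with 14.7, 12.3 and 11.1 in MSC and 9.62, 11.9 and 9.47 in DPSC. Its difference was -2.36 ± 0.83 and that of RT1-DMa, which helps to load peptides, was -2.08 ± 0.58 (SE, n = 3 per group). Ciita, the coactivator that switches on class II genes, differed by -0.87 ± 0.41 (unadjusted p = 0.056).

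MHC class I and peptide loading genes were lower in DPSC in 24 of 24 cases. Of these, 15 were lower at an unadjusted p under 0.05 and 5 without overlap, against 5.88% and 3.68% of all tested genes. The list median was -0.73, and it was -0.33 without MSC 1 and -1.12 without MSC 3. RT1-A2, a classical class I heavy chain, had values of 12.95, 11.82 and 12.38 in MSC and of 9.78, 11.33 and 10.95 in DPSC. Here all 3 DPSC libraries, DPSC 2 included, were below all 3 MSC libraries. The difference was -1.70 ± 0.44 (SE, n = 3 per group, unadjusted p = 0.0021, adjusted p = 0.58), and RT1-CE7 behaved alike at -1.30 ± 0.34. RT1 class I genes are near-identical copies whose reads the quantification may have split, so that the value of any single one is uncertain. The light chain B2m differed by -0.999 ± 0.42 and the peptide transporter subunit Tap1 by -0.92 ± 0.29.

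Of 44 interferon-stimulated genes tested, 42 were lower in DPSC, with a median of -0.72 (-1.09 without MSC 3). Of the 44, 26 were lower at an unadjusted p under 0.05 and 2 without overlap, against 5.88% and 3.68% of all tested genes. Zbp1, a sensor of left-handed nucleic acids, had the smallest unadjusted p of this list (0.0013). It measured 7.52, 6.69 and 5.77 in MSC 1, 2 and 3 and 5.01, 5.67 and 5.03 in DPSC 1, 2 and 3, without overlap and with a difference of -1.42 ± 0.35. The guanylate-binding protein Gbp2 differed by -1.43 ± 0.48 and the antiviral GTPase Mx1 by -1.51 ± 0.52. The order within MSC was not that of the lymphocyte genes, since MSC 2 (1.97 above NT) and MSC 1 (1.93) had like list levels and MSC 3 (1.03) was lower. Among 28 chemokines and receptors 24 were lower in DPSC, 12 by over 1, with a median of -0.71 (-0.42 without MSC 1). The interferon-induced T cell attractant Cxcl10 stood at 8.48, 8.06 and 6.70 in MSC 1, 2 and 3 and at 6.11, 6.71 and 6.45 in DPSC 1, 2 and 3. MSC 3 and DPSC 2 had nearly the same value, and the difference of the means was -1.33 ± 0.34 (SE, n = 3 per group, unadjusted p = 0.002). Cxcl11, which shares a receptor with Cxcl10, and Ccl22 did not overlap between groups, at -1.25 ± 0.33 and -1.41 ± 0.37.

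**Figure D3:**
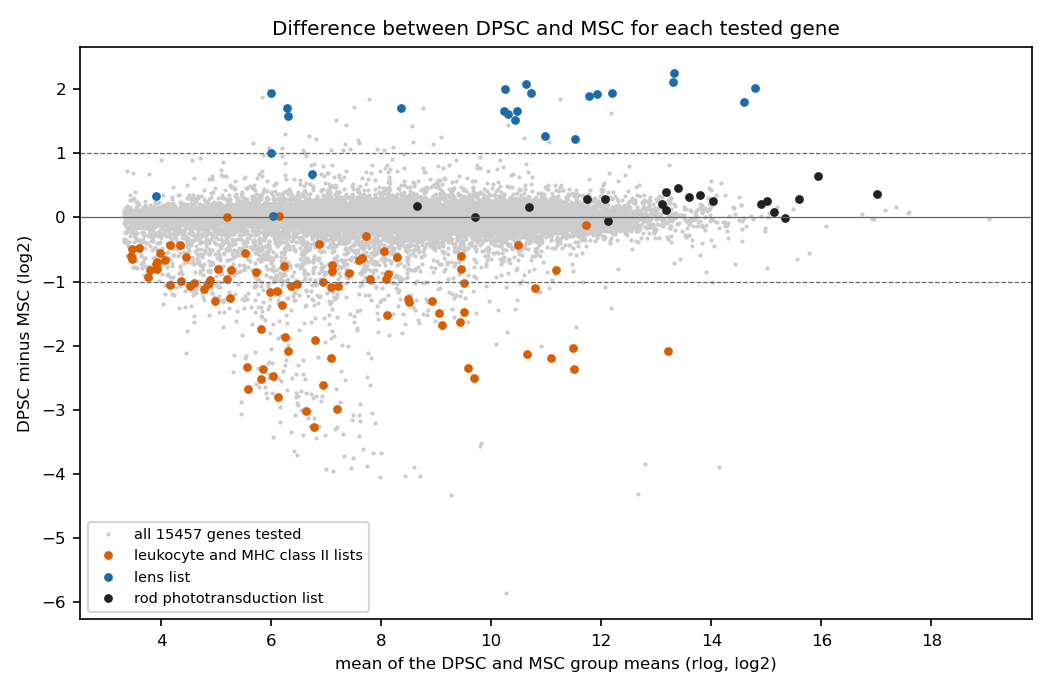
Difference of group means, DPSC minus MSC (y axis, log2), against the mean of both group means (x axis, rlog) for the 15457 tested genes, with dashed lines at a difference of 1 in each direction. Leukocyte and MHC class II members lie mostly below 0, lens members above 0 and rod genes slightly above 0; 0 of the genes passed the adjusted threshold.

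Promoters of 4 of these genes are shown because the interferon and MHC lists differ in the letters their promoters hold. Each run spans 250 bases before to 50 bases after the annotated start, from RefSeq on build GRCr8, plus strand, and was matched by symbol, whereas the expression values were made on Rnor_6.0. Capitals mark matches to GAAANNGAA, the core of the interferon-stimulated response element, or to CTGATTGG, the Y box of class II promoters, on either strand. Cxcl10 is at chr14:15988816-15989115, Gbp2 at chr2:234005477-234005776, RT1-Da at chr20:4515165-4515464 and RT1-A2 at chr20:4872621-4872920.
Cxcl10: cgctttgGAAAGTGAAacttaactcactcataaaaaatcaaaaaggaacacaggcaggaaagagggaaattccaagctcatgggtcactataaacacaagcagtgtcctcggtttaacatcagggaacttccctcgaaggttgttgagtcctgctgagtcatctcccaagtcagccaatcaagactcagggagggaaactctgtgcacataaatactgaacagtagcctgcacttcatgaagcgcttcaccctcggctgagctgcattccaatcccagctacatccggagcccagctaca
Gbp2: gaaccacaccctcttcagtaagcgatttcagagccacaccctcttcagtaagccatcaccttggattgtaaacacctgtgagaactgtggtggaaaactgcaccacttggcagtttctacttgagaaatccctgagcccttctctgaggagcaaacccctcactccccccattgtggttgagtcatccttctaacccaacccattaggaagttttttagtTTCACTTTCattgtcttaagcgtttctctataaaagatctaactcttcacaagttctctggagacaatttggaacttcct
RT1-Da: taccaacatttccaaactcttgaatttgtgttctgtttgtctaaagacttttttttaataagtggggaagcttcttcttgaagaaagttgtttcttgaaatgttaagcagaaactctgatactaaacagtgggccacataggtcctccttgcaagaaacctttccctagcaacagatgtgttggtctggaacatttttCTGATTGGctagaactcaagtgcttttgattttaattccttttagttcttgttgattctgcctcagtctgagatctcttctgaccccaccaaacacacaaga
RT1-A2: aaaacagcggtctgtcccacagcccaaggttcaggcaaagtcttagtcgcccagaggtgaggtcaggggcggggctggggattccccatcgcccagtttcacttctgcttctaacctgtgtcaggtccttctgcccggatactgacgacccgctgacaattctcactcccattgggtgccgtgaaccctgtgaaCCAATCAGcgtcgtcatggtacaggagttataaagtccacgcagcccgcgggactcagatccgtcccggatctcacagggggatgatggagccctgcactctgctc

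GAAANNGAA occurs in 9.71% of all 33469 promoters of this length and CTGATTGG in 3.5%. Of the 33 interferon-stimulated genes with a promoter, 21 (63.6%) held GAAANNGAA and 1 (3.03%) held CTGATTGG. The 9 matched class II promoters showed the opposite, with CTGATTGG in 6 and GAAANNGAA in 0. Class I and peptide loading promoters held both kinds, GAAANNGAA in 9 of 20 and CTGATTGG in 7 of 20, while the 22 chemokine and receptor promoters held them in 2 and 1. The motifs were picked after several others had been looked at, and a match is a string of letters in this window, not a bound site. A promoter without a match may still hold a variant form of the element that these strings miss.

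Complement genes were lower in DPSC in 20 of 22 cases, 0 of them without overlap, with a median of -0.72. The central component C3 stood at 13.7, 12.9 and 12.0 in MSC and 10.9, 12.4 and 11.1 in DPSC, beside a sham mean of 11.4. C1qc, a chain of the recognition molecule C1q made by microglia and macrophages, differed by -1.44 ± 0.43 (SE, n = 3 per group, unadjusted p = 0.0057). In TNF and NF-κB signaling 30 of 31 genes were lower in DPSC (median -0.54), with the inhibitor-like Nfkbiz lower without overlap at -0.60 ± 0.19. In the cell death list 22 of 24 were lower (median -0.42), led by inflammatory and immune-cell members such as Bcl2a1 (-1.63 ± 0.54) and Casp1, the protease of the inflammasome (-1.27 ± 0.46). Cell cycle genes were lower in 29 of 30 cases (median -0.38), among them the proliferation marker Mki67 (9.94, 8.22 and 7.05 in MSC, 6.66, 7.37 and 5.19 in DPSC) and the cycle inhibitor Cdkn1a, which differed by -0.65 ± 0.20 without overlap. All these lists rank the MSC and DPSC libraries much as the leukocyte lists do, with DPSC 2 the highest DPSC library in each. Much of their size came with 1 library, since without MSC 1 the medians were -0.35 for complement, -0.21 for TNF and NF-κB signaling, -0.15 for cell death and -0.13 for the cell cycle. The complement median was also smaller without DPSC 3 (-0.42), and the cell cycle median was larger without MSC 3 (-0.59). In bulk tissue, fewer cells of a type and less RNA per cell cannot be told apart, and the part of leukocyte number in these differences was not tested.

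The genes with the largest differences mostly followed the library order of the leukocyte genes. Among the 405 genes lower by over 1, which were chosen for a difference that a high MSC 1 enlarges, DPSC 2 was the highest DPSC library in 390 (96.3%) and MSC 1 the highest MSC library in 365 (90.1%). Groups were without overlap in 67 of the 405, against 3.68% of all tested genes that were lower without overlap. Selection by size favours such a separation. Among the 52 genes higher by over 1, the groups were without overlap in 2. Relative to sham, the 405 genes had a median of 1.73 in MSC and 0.38 in DPSC, and 327 of them were within 1 of sham in DPSC. Both differences share the sham libraries. Against sham itself 0 genes passed limma's test in MSC, where 1487 genes were higher and 587 lower at an unadjusted p under 0.05 (9.62% and 3.8%) and 561 were over 1 higher and 25 over 1 lower (3.63% and 0.162%). The study itself reported many genes both higher and lower in MSC than in sham, using DESeq2 with the same cutoffs of adjusted p and fold. A count of 0 from limma on rlog values therefore does not show that groups were alike. Why the methods differed was not tested. In DPSC 0 genes were called higher and 2 lower than sham (0% and 0.0129%), while 152 were higher and 212 lower at an unadjusted p under 0.05 (0.983% and 1.37%) and 113 were over 1 higher and 39 over 1 lower (0.731% and 0.252%). The 2 called genes were the keratin Krt75 (-1.32, adjusted p = 0.0309) and RGD1560925 (-1.22, adjusted p = 0.0309). RGD1560925 did not separate the cell groups, at 11.9, 11.5 and 11.9 in DPSC, 11.6, 11.8 and 12.2 in MSC and 12.8 to 13.2 in sham. Beside the MSCEPO group, whose transplanted MSC cells carried an erythropoietin gene, DPSC again had 0 called genes in limma's test, with 243 higher and 138 lower at an unadjusted p under 0.05 (1.57% and 0.893%) and 47 over 1 higher and 53 over 1 lower (0.304% and 0.343%).

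**Figure D4:**
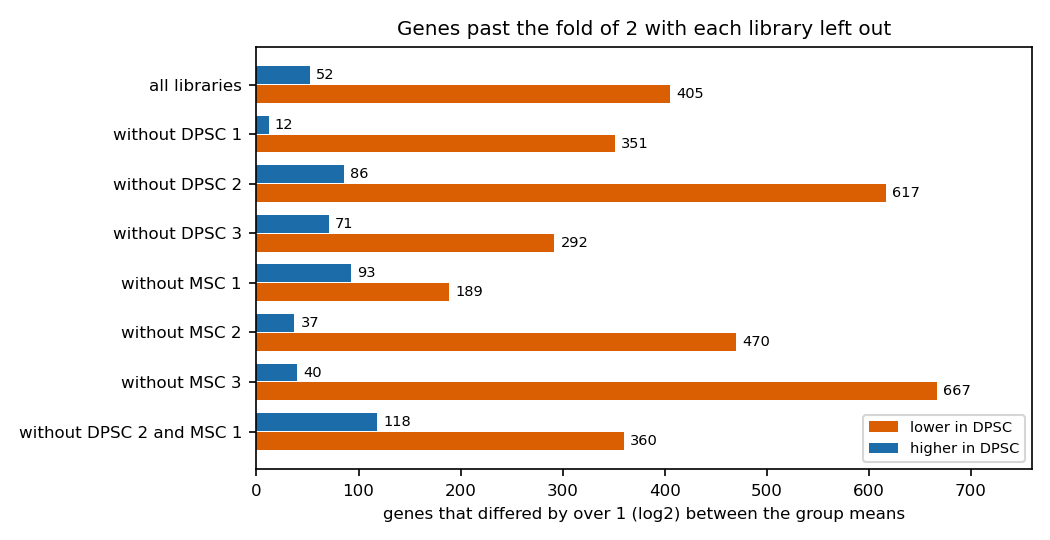
Number of genes (x axis) whose group means differed by over 1 on the log2 scale, lower in DPSC (orange) or higher in DPSC (blue), with all libraries and with each DPSC or MSC library, or both DPSC 2 and MSC 1, left out. Without MSC 1 the lower genes number 189 in place of 405, and without DPSC 1 the higher genes number 12 in place of 52.

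Glial genes differed in part. Of 25 reactive gliosis genes 22 were lower in DPSC, 10 at an unadjusted p under 0.05 and 8 without overlap (the background for the latter is 3.68%), with a median of -0.48 (-0.27 without MSC 1). Serpina3n, an acute-phase protease inhibitor of reactive astroglia, had values of 11.7, 11.1 and 12.9 in MSC 1, 2 and 3 and of 9.44, 10.5 and 9.72 in DPSC 1, 2 and 3. It was lower by 2.00 ± 0.79 without overlap, and here MSC 3, not MSC 1, was highest. The iron-binding Lcn2 stood at 12.26, 11.73 and 11.49 in MSC and 10.96, 11.23 and 11.13 in DPSC, a difference of -0.72 ± 0.20 (SE, n = 3 per group, unadjusted p = 0.0035). The injury cytokine Lif differed by -0.61 ± 0.23 and its mediator Stat3 by -0.32 ± 0.13, both without overlap. The intermediate filament Gfap overlapped, with 13.33, 13.995 and 13.94 in MSC and 12.7, 13.6 and 13.1 in DPSC, against 13.1 in sham and 9.72 in NT. Vim, the other filament of gliosis, differed by 0.13 ± 0.24. Homeostatic Müller genes were split, 8 higher and 10 lower with a median of -0.10 that changed sign without MSC 2 or without DPSC 1, and glutamine synthetase Glul (0.14 ± 0.16) and Rlbp1 (0.34 ± 0.19, without overlap) were not lower. Cdkn1c was higher at 0.99 ± 0.32 but overlapped, and the lipid carriers Apoe (-0.65 ± 0.30) and Clu (-0.55 ± 0.25) were lower.

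Rod and outer segment genes were slightly higher in DPSC. Of 20 rod phototransduction genes 18 were higher, with a median of 0.26 (0.45 without DPSC 2 and 0.14 without DPSC 3), 0 at an unadjusted p under 0.05 and 0 without overlap. Gnat1, the alpha subunit of rod transducin, measured 15.5, 15.6 and 15.7 in MSC 1, 2 and 3, 16.8, 15.2 and 16.8 in DPSC 1, 2 and 3, 16.8 in the sham mean and 17.9 in the NT mean. DPSC 1 and DPSC 3 exceeded every MSC library, and DPSC 2 was below them all. The difference was 0.65 ± 0.43 (SE, n = 3 per group, unadjusted p = 0.15, adjusted p = 0.88). Outer segment genes were higher in 12 of 13 cases (median 0.21, and 0.13 without DPSC 3), and Cdhr1, a cadherin of the disc rim, was the one without overlap at 0.33 ± 0.14 (unadjusted p = 0.0368). Of 13 photoreceptor transcription factors 9 were higher and 4 lower, with a median of 0.08. Among them Esrrb (0.61 ± 0.25) and Nrl, the rod master regulator (0.34 ± 0.18), were higher with overlap, and Mef2c was lower with overlap (-0.26 ± 0.20). Cone genes were split 5 to 6, with a median of -0.05 and the cone transducin subunit Gnat2 at -0.12 ± 0.19. The list levels of rod genes below NT were 1.14 to 1.29 in MSC (3 libraries), 0.88, 1.30 and 0.75 in DPSC 1, 2 and 3, and 0.57 to 0.74 in sham.

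**Figure D5:**
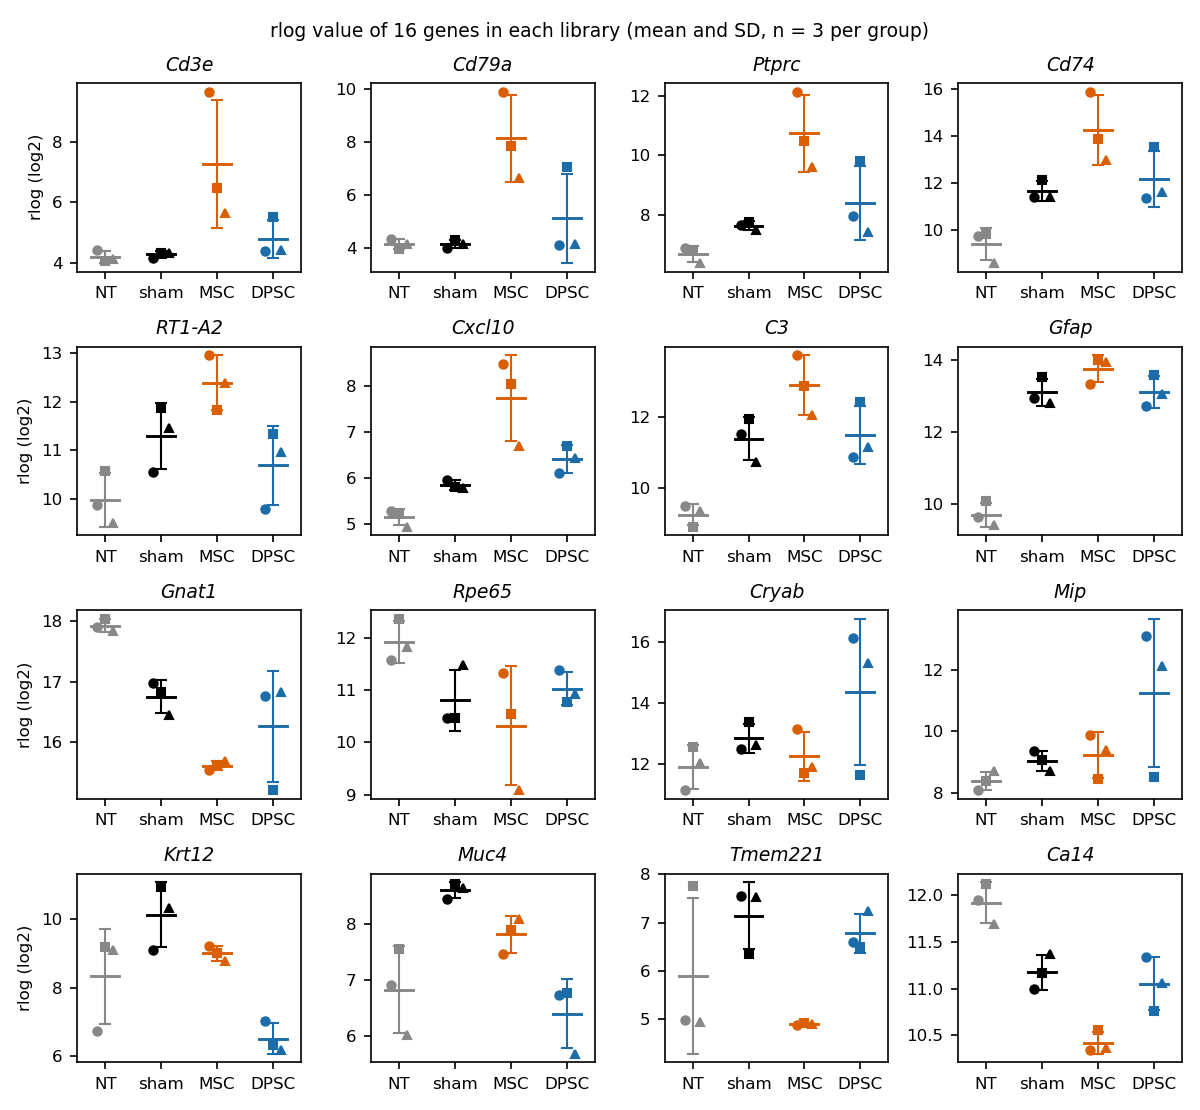
rlog values of 16 genes in each library of NT, sham, MSC and DPSC (circle, square and triangle are replicates 1, 2 and 3; horizontal lines are means and bars are SD, n = 3 per group; each panel has its own y axis, which does not start at 0). DPSC 2 lies with MSC in Cd79a and Cd74 and just below MSC in Gnat1 and Cryab, and all 3 DPSC libraries lie apart from MSC in RT1-A2, Krt12, Muc4, Tmem221 and Ca14.

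Inner retinal neurons differed little. Retinal ganglion cell genes were higher in DPSC in 14 of 16 cases (median 0.21, 0.34 without MSC 3 and 0.10 without DPSC 3), with 1 at an unadjusted p under 0.05: Nrn1, a neuronal growth-promoting surface protein, at 0.62 ± 0.28 with overlap. The vesicular glutamate transporter Slc17a6 differed by 0.44 ± 0.21. Bipolar genes (14 of 18 higher, median 0.06), amacrine and horizontal cell genes (14 of 18 higher, median 0.10) and photoreceptor synapse genes (13 of 18 higher, median 0.10) were higher more often than the 49.5% of all genes, but by little, and without MSC 1 their medians changed sign to -0.10, -0.09 and -0.01. MSC 1 was the lowest library in the amacrine and horizontal list, at 0.69 below NT, where DPSC 1, 2 and 3 were 0.18, 0.35 and 0.03 below. Retinal pigment epithelium genes were higher in DPSC in 15 of 16 cases with a median of 0.66, but with 0 at an unadjusted p under 0.05. The isomerase Rpe65 stood at 11.3, 10.5 and 9.09 in MSC 1, 2 and 3 and at 11.4, 10.8 and 10.9 in DPSC 1, 2 and 3, with a difference of 0.71 ± 0.50 and MSC 3 well below the other 5 libraries. The list median depended on single libraries, at 1.19 without MSC 1, 0.14 without MSC 3, 0.34 without DPSC 1 and 1.12 without both DPSC 2 and MSC 1. How much pigment epithelium came with each dissected retina was not tested.

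Lens genes gave the largest differences in the other direction, and 21 of the 52 genes higher in DPSC by over 1 belonged to the lens list. All 24 tested members were higher in DPSC, 21 by over 1, with a median of 1.71, yet only 3 had an unadjusted p under 0.05 and 0 were without overlap. The crystallin Cryab had values of 16.1 and 15.3 in DPSC 1 and DPSC 3 and of 11.6 in DPSC 2, which was lower than the 13.2, 11.7 and 11.9 of MSC 1, 2 and 3. Cryaa, another alpha crystallin of the lens, was at 18.2, 11.7 and 17.5 in DPSC 1, 2 and 3, at 15.2, 12.6 and 13.5 in MSC and at 14.2 to 15.2 in sham, a difference of 2.01 ± 1.56 (SE, n = 3 per group, unadjusted p = 0.22). The lens water channel Mip behaved alike, at 13.1, 8.53 and 12.1 in DPSC 1, 2 and 3. The list level above NT was 4.74, -0.78 and 3.88 in DPSC and 1.99, 0.06 and 1.05 in MSC. Without DPSC 2 the list median was 3.84, without DPSC 2 and MSC 1 it was 4.44, and without DPSC 1 or DPSC 3 it was 0.63 or 1.02. The part of lens tissue taken along at dissection was not tested. Heat shock genes as a whole were split 8 to 9, with the small heat shock protein Hspb1 at 10.0, 8.47 and 9.33 in DPSC and 8.81, 8.63 and 8.76 in MSC.

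A few genes of corneal epithelium were lower in all 3 DPSC libraries than in all 3 MSC libraries. Krt12, the keratin of corneal epithelium, measured 9.21, 8.998 and 8.79 in MSC 1, 2 and 3 and 7.02, 6.32 and 6.18 in DPSC 1, 2 and 3. The groups did not overlap, with a difference of -2.49 ± 0.59 (SE, n = 3 per group, unadjusted p = 0.001, adjusted p = 0.58). Sham libraries were higher still, at 9.09 to 10.95, and NT libraries ranged from 6.73 to 9.18. The basal keratin Krt5 differed by -2.22 ± 0.82 and the membrane mucin Muc4 by -1.42 ± 0.37, both without overlap. Of the 16 tested genes of cornea, ciliary body and iris 8 were higher and 8 lower, with a median of -0.11 that changed sign without DPSC 3, so that the difference lay in a few members. How much surface tissue came with each retina was not tested.

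Single genes outside these lists also separated the groups. Ubd, a ubiquitin-like modifier induced by interferon and TNF, stood at 11.03, 7.02 and 6.03 in MSC and 4.06, 5.85 and 4.14 in DPSC, the largest difference among the named non-overlapping genes with a symbol (-3.35 ± 0.94). Slpi, a secreted inhibitor of leukocyte proteases, followed at 10.8, 7.07 and 6.79 in MSC and 5.74, 4.96 and 4.94 in DPSC (-3.01 ± 0.83). The cathepsin Ctsw of cytotoxic lymphocytes differed by -2.35 ± 0.79, and the myosin Myo1g of blood cells by -1.88 ± 0.53. In the other direction Tmem221, a predicted membrane protein, had 6.61, 6.50 and 7.24 in DPSC and 4.89, 4.92 and 4.91 in MSC, a difference of 1.88 ± 0.60 (unadjusted p = 0.0085). Sham libraries were at 6.36 to 7.55 and so lay with DPSC, while NT libraries at 4.95, 4.99 and 7.76 lay on both sides. The MSC values were nearly equal and close to the NT values of 4.95 and 4.99. Whether these are the floor that rlog gives to libraries with few reads was not tested. Ca14, a membrane carbonic anhydrase of the retina, was at 11.3, 10.8 and 11.1 in DPSC and 10.3, 10.6 and 10.4 in MSC (0.63 ± 0.17, unadjusted p = 0.003). Ptpru, a receptor phosphatase, was tightly grouped in MSC at 7.73 to 7.76 and ranged from 7.79 to 9.56 in DPSC (0.90 ± 0.32), so that the groups only just missed overlapping. Rpl39l, a ribosomal protein paralog, differed by 0.65 ± 0.17 (unadjusted p = 0.0022), and its reads may be shared with its near-identical copy.

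Lists of support and metabolism mostly had medians near 0. Growth and neurotrophic factors were split 15 to 19 (median -0.01), with the angiogenic factor Vegfa higher without overlap by 0.31 ± 0.12 and Bdnf at 0.42 ± 0.23. Antioxidant genes were split 15 to 13 (median 0.02, 0 at an unadjusted p under 0.05), and Hmox1 differed by -0.29 ± 0.20. Glycolysis genes were higher in 23 of 29 cases (median 0.18, 0.30 without DPSC 2 and 0.08 without DPSC 3), including the lactate transporter Slc16a3 without overlap (0.35 ± 0.14) and the photoreceptor-enriched hexokinase Hk2 with overlap (0.57 ± 0.28). Respiratory chain genes (27 of 37 higher) had a median of 0.04. Extracellular matrix genes were 14 higher and 22 lower (median -0.09, but 0.19 without MSC 1 and 0.30 without DPSC 3). Endothelium and pericyte genes were 7 higher and 15 lower (median -0.11, but 0.13 without MSC 1 and 0.08 without DPSC 3). Circadian clock genes (12 of 19 higher, median 0.12) included Nr1d2 higher by 0.26 ± 0.11 and Bhlhe40 lower at -0.49 ± 0.19. Immediate early genes were lower in 19 of 22 cases. Of the 22, 4 were lower at an unadjusted p under 0.05 and 6 without overlap, against 5.88% and 3.68% of all tested genes. The transcription factor Egr2 (-0.51 ± 0.15) was among the 6. The list median of -0.22 rested on MSC 1, without which it was -0.03. Myelin genes (6 of 9 higher) had a median of 0.06, but of 0.26 without DPSC 3. Striated muscle genes (9 of 12 higher) had a median of 0.04, but of 0.19 without MSC 3 and 0.20 with quantile normalization. The erythrocyte list had 4 tested genes, all higher in DPSC, with a level of 2.60 above NT in DPSC 1 and of 0.46 and 0.30 in DPSC 2 and 3.

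The call of 0 genes depended on 2 libraries. Without DPSC 2, 18 genes passed the test, 13 lower and 5 higher in DPSC. Of the 13, only Pou2f2, a factor of B cells also present in other tissues, had a symbol (9.18, 8.84 and 9.06 in MSC, 8.04 and 7.87 in DPSC 1 and 3, and 8.74 in DPSC 2, which was left out). The 5 higher genes were Crygn, a lens crystallin (difference 3.199, adjusted p = 0.0423), the signaling ligand Wnt7a (1.59), Tmem40, LOC102553495 and the catenin-family gene Arvcf, and all 5 were high in DPSC 1 and DPSC 3 and not in DPSC 2. Without MSC 3, 8 genes passed, all lower in DPSC, among them Cxcl10 (-1.85, adjusted p = 0.0068), Zbp1 (-1.87, adjusted p = 0.045), the interleukin-2 receptor chain Il2ra (-2.20) and the adaptor Hsh2d (-1.12). Without DPSC 1, DPSC 3, MSC 1 or MSC 2 the count stayed at 0. With both DPSC 2 and MSC 1 left out, 2 genes without a symbol passed, ENSRNOG00000050489 (-2.09) and ENSRNOG00000042319 (-1.87).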

How the data were processed

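The authors sequenced poly(A) RNA of rat retinas, ran Salmon 1.1.0 on the Rnor_6.0 transcriptome and, after gene-level import by tximport, DESeq2's regularized log transform (version given as 3.2 in the submitters' processing notes). The deposited values are rlog values on a log2 scale, which adjust for sequencing depth and pull weakly supported values to the gene's average, so that differences of low genes are understated. Depth is unknown from these values, and no counting intervals are given. A series-wide table repeats these values in 15 columns that were not used (0 values differed), nor was its unnamed column that marks 88 genes.

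Groups came from the sample titles, 3 libraries each. The labels do not state that libraries came from separate animals, so p-values measure spread between libraries and not between animals. This spread, and each SE, was pooled over all 5 groups and is not that of DPSC and MSC alone. Genes that varied little in NT and sham can therefore have a smaller SE and p than DPSC and MSC alone would give. One limma 3.58.1 fit (R 4.3.3) of 5 group means over all 15 libraries, with 10 residual degrees of freedom and a variance trend, was used for the contrast of DPSC with MSC. The tested genes had a mean rlog of at least 3.32 over the 6 DPSC and MSC libraries, and p-values were adjusted by Benjamini-Hochberg over all 15457. A call needed an adjusted p under 0.05 and a difference over 1 (log2). The pipeline was tested on simulated data.

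Samples, thresholds and 38 hand-written gene lists (895 members, 849 listed, 783 distinct genes tested) were chosen with earlier results of these data known. Lists were summarized without a test. The level of a list is the mean rlog of its tested members minus the NT mean. Of symbols on several rows the highest was taken. Named genes were those called, up to 12 in each direction, filled up with the largest differences without overlap, up to 4 genes of smallest unadjusted p per list with at least 5 tested members, and fixed markers. List members that illustrate a role were added after their values were seen. Some genes that the rule selects are not reported here.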

Additional observations from a re-analysis of the deposited data

Results flagged for a closer look

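In 4 of the named genes all 3 DPSC libraries lay on one side of the sham mean and all 3 MSC libraries on the other. The opposite direction relative to sham was not tested in itself. Slpi, the leukocyte protease inhibitor, differed between DPSC and MSC by -3.01, with sham at 5.54 to 6.10, DPSC at 4.94 to 5.74 and MSC at 6.79 to 10.8. LOC682402 differed by -2.87, with DPSC at 5.07 to 6.24 and MSC at 8.28 to 8.94, and its sham libraries were spread from 5.86 to 9.27. The cell cycle inhibitor Cdkn1a differed by -0.65, with DPSC at 6.89 to 7.30, sham at 7.26 to 7.34 and MSC at 7.47 to 8.28. Sapcd1 was the one gene higher in DPSC, by 0.60, with DPSC at 9.09 to 9.92, sham at 8.92 to 9.26 and MSC at 8.75 to 9.03.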

How the results depend on the processing

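The count of 0 called genes held with the 6 libraries alone, without a filter, with the level required in each library, with median centring, quantile normalization, array weights or no variance trend, with the adjusted p alone, and without MSCEPO 3. With each DPSC or MSC library left out in turn it ranged from 0 to 18 in all, from 0 to 5 higher and from 0 to 13 lower in DPSC. Calls appeared without DPSC 2 (18) and without MSC 3 (8), and with both DPSC 2 and MSC 1 left out, a choice made after seeing the data (2 in all, 2 lower). Where one arm was left with 2 libraries, the spread was shared with all groups. With a library left out in turn, genes over 1 higher ranged from 12 (without DPSC 1) to 93 (without MSC 1) and genes over 1 lower from 189 (without MSC 1) to 667 (without MSC 3). Genes at an unadjusted p under 0.05 ranged from 59 (without DPSC 1) to 642 (without DPSC 2) higher and from 366 (without DPSC 3) to 1490 (without MSC 3) lower. Those counts were 97 higher and 402 lower with the 6 libraries alone, 303 higher without a filter, 489 higher with quantile normalization, 986 higher with array weights, 432 higher without MSCEPO 3 and 598 higher without both DPSC 2 and MSC 1. Genes over 1 higher numbered 201 with array weights and 118 without both libraries. The array weights did not converge fully and gave MSC 2 a weight near 0 (2.762e-05), so their values rest mainly on the other libraries.

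The labels do not say whether same-numbered DPSC and MSC libraries share more than a number. Their correlations of deviations were -0.024, 0.115 and 0.478, the last being the largest of any pair compared, and not every library correlated best with its own number. With 3 libraries per group these correlations cannot decide whether a batch was shared. With the replicate block, 0 genes were called, 179 were higher and 644 lower at an unadjusted p under 0.05 with 6 libraries, and 231 and 1053 with 15. The block changed no other call.

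Of 182 named genes, 10 changed sign under some alternative. They were Opn1mw (-0.0041 without DPSC 3 to 0.34 without DPSC 2), Cnga3 (0.0735 with quantile normalization, 0.23 with array weights), Sebox (-0.0383 with array weights), Selp (-0.21 without MSC 2 to 0.0072 without MSC 1), Nfil3 (0.0069 without both libraries), Opn1sw (-0.23 without DPSC 2 to 0.005 without DPSC 1), Gnat2 (-0.32 without MSC 1 to 0.0134 without MSC 3), Grm6 (-0.16 with array weights, -0.18 without MSC 1, -0.20 without both), Mbp (-0.54 with array weights, -0.0818 without MSC 2, -0.40 without DPSC 2, 0.30 without DPSC 1, -0.41 without both) and Col1a1 (0.58 with array weights, 0.18 without MSC 1, 0.28 without DPSC 3, -0.71 without MSC 3). Of the list medians recomputed under the alternatives, 347 moved by less than the spread between replicates and 13 by more. Of 36 lists, 14 had a median that changed sign with at least 1 library left out, none of them over 0.12 from 0 with all libraries (the cone, bipolar, amacrine and horizontal, Müller, photoreceptor synapse, extracellular matrix, endothelium, cornea, muscle, heat shock, antioxidant, growth factor, respiratory chain and clock lists). The causes of these changes were not tested, and depth, which is unknown here, limits what low genes can show.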

Other observations

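In the MSCEPO group, T and NK cell genes stood at 0.84, 0.48 and 0.30 above NT in replicates 1, 2 and 3 and at 0.15, 0.66 and 0.07 in DPSC 1, 2 and 3. MHC class II genes stood at 2.69, 1.90 and 1.89 in MSCEPO 1, 2 and 3. MSCEPO 2 and 3 lay below every MSC library (2.05 to 4.82) and within the DPSC range (0.83 to 2.47). MSCEPO 1 lay above the DPSC range and within that of MSC. The lens list was high in MSCEPO 3 (2.97 above NT) as well as in DPSC 1 and DPSC 3, and low in MSCEPO 1 and 2 (-0.57 and 0.33). The 116 genes without a symbol that were chosen for being lower in DPSC by over 1 stood on average at 0.04 above NT in MSCEPO 3, against 2.91 and 2.07 in MSCEPO 1 and 2, and so at a level like that of DPSC 1 and DPSC 3. Other genes without a symbol did not follow this, as ENSRNOG00000045729 was at 9.06 in MSCEPO 3 and at 5.76 in MSCEPO 2.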
